A study of Drosophila melanogaster with 6 samples.

Results

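The insect cuticle is an extracellular coat of chitin fibres set in a matrix of structural proteins. Most of these proteins belong to the CPR family, which carries the Rebers and Riddiford sequence, a domain that binds chitin. They are secreted apically by the epidermis, the tracheae, the foregut and the hindgut, and a fly embryo lays down its first larval cuticle late in embryogenesis. Different family members serve the larval, pupal and adult cuticle. The genes described here were chosen by current symbol: Cpr, Lcp (larval cuticle protein) or Ccp followed by a number, Edg (ecdysone-dependent gene), resilin and Acp1. Cpr symbols give the place of the gene on the polytene map. Of 99 such genes in the RefSeq gene table, 80 had a probe set that names them alone, out of 11982 genes measured, and these 80 are the members described. The remaining 19 have no values of their own here, among them Acp1 and the larval cuticle genes Lcp1 to Lcp4. The domain itself was not checked, since membership rests on the symbol.

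RNA of whole Drosophila melanogaster embryos was hybridised to Affymetrix Drosophila Genome 2.0 arrays. The 3 foxL1 null arrays came from foxLCr/foxL1del embryos, which lack the forkhead transcription factor FoxL1, and the 3 wild-type arrays from Oregon R embryos, described as stage-matched. The labels give stages 11 to 15 for both genotypes, and the protocol gives 8 h of collection followed by 11 h of ageing at room temperature. These do not obviously describe the same ages, since embryos aged this long can be past the labelled stages, so no signal is assigned to a stage here. Each sample pooled embryos. Each genotype came from its own line, so genotype and line cannot be told apart, and in whole embryos fewer epidermal cells and less RNA per cell cannot be told apart either.

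Signals are log2 values, so a difference of 1 is a change of 2-fold, and signals of different genes are not read as relative transcript amounts because each probe set binds with its own strength. The FoxL1 transcript read 4.23, 4.35 and 3.37 on the null arrays 1, 2 and 3, against 4.85, 5.12 and 5.01 on the wild-type arrays, without overlap (log2 difference -1.01, SE 0.25, limma adjusted p = 0.0489). Null array 3 had the lowest array weight, 0.317. Of the 7 measured markers of epidermis and trachea, 0 passed the test. Their summed linear signal was 7137 to 7930 on the null arrays and 8124 to 8572 on the wild-type arrays. Such sums are led by the brightest probe sets and are not read as amounts of tissue. Here the brightest were serp and verm, at 11.25 and 11.26 in the null embryos, and both are also in the list of chitin genes described below. Among markers of other sources, 3 of 7 blastoderm genes fell in the null embryos (ftz, halo and bnk) with summed signals of 626 to 860, against 934 to 1124 in the wild type. In the germ line list 2 of 3 rose (bam and aub), with sums of 255 to 260 in the null embryos and 86.5 to 120 in the wild type. Of 4 hemocyte markers 0 passed and 1 fell with the array number as a block, and their sums were 681 to 868 in the null embryos and 1032 to 1108 in the wild type. Over all genes 4.0% fell and 6.24% rose, and 9.09% fell with the array number as a block. All null values lay below all wild-type values for 17.8% of single genes, and above them for 14.1%. The part of these markers in the results below was not tested.

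No cuticle protein gene passed the test in either direction. By limma, with the adjustment over all probe sets, 0 of the 80 members rose in the null embryos and 0 fell, while 6.24% of all genes rose and 4.0% fell (10.2% in either direction). At an unadjusted p under 0.05, 2 members were higher and 1 was lower, against 12.0% and 15.1% of all genes. The lowest adjusted p among the members was 0.139. The members' median difference was -0.18, beside -0.07 over all genes, and 52 of 80 (65.0%) lay below 0, beside 60.0% of all genes. Only Cpr92F, 1 member of 80, differed by more than 2-fold, as 2.73% of all genes did. When the median of each array was set to 0 first, the median was -0.06 for the members and 0.05 for all genes, so both moved up by over 0.1.

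**Figure D1:**
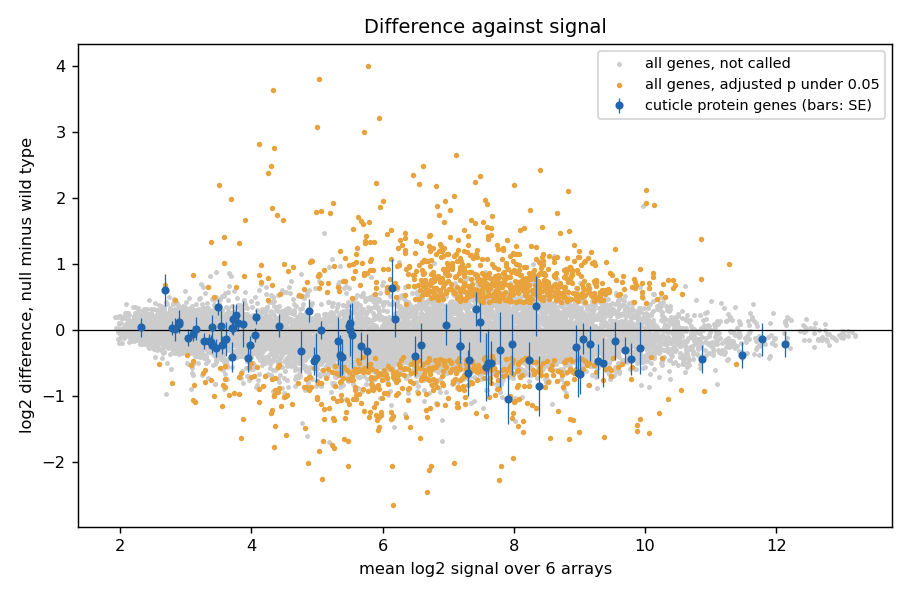
Log2 difference, null minus wild type, against the mean log2 signal over the 6 arrays. Grey and orange points are all 11982 genes, orange where the limma adjusted p was under 0.05, and blue points with SE bars are the 80 cuticle protein genes, of which 0 were called. Above a signal of about 8 nearly all blue points lie below the zero line, within the grey band and with wide bars.

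Without regard to the array numbers, the intervals of the cuticle genes were wide. The limma 95% interval lay inside a 2-fold change either way for 53 of 80 members (66.2%), beside 87.7% of all genes. For 24 members the interval extended to a fall of 2-fold or more, and for 5 to a rise of that size. With the array number as a block, a setting described below, the interval lay inside a 2-fold change for 74 of 80 members (92.5%), beside 92.0% of all genes. It then reached a fall of that size for 4 members and a rise for 2. A member without a call is therefore not shown to be equal between the genotypes.

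Arrays of one genotype differed more for the cuticle genes than for other genes. The pooled SD within genotype had a median of 0.38 for the 80 members and 0.17 for the 11902 other genes. Genes were put into 4 signal classes, divided at the quartiles of the mean signal over all probe sets. There were 23 members in the highest class, 22 in the third, 29 in the second and 6 in the lowest. In the highest class the median SD was 0.48 for members and 0.16 for other genes, and in the third 0.46 and 0.19. In the second class the medians were 0.20 and 0.19, and in the lowest, with 6 members, 0.22 and 0.14. Among members the SD ran from 0.06 to 0.95. A wide spread was also measured in other lists of cuticle genes. Median SDs were 0.40 for Tweedle genes, 0.50 for other cuticle families, 0.33 for tanning genes and 0.29 for Osiris genes. For genes of chitin synthesis and assembly the median was 0.20. A wide spread was not particular to cuticle genes. It was 1.07 for 4 midgut markers, 0.36 for barrier and epidermal regulators and 0.30 for genes of the ecdysone cascade.

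**Figure D2:**
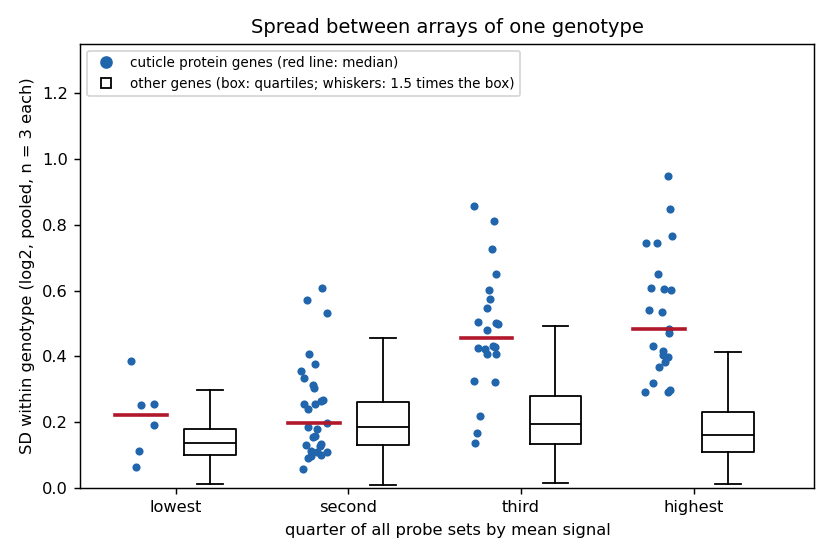
SD within genotype (log2, pooled over 2 genotypes with 3 arrays each) by class of mean signal. Blue points are cuticle protein genes with their median as a red line, and boxes are the other genes. In the third and highest classes the red lines stand at 0.46 and 0.48, against box medians of 0.19 and 0.16.

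The spread had the same shape in most brighter members. The array numbered 2 was the lowest of its genotype in both genotypes for 44 of 80 members (55.0%), against 17.6% of all genes. In the highest class this held for 20 of 23 members and for 15.8% of the other genes, and in the third for 17 of 22 and 21.7%. Taken singly, null array 2 was the lowest null array for 53 members (66.2%, against 31.1% of all genes), and wild-type array 2 the lowest wild-type array for 58 (72.5%, against 33.1%). Wild-type array 1 was the highest of its genotype for 54 (67.5%, against 33.6%). The median signal of the 80 members was 5.47, 5.05 and 5.69 on null arrays 1, 2 and 3, against 6.002, 5.11 and 5.55 on the wild-type arrays. The wild-type array 1 was thus the highest of the 6 and both arrays numbered 2 were the lowest. The numbers come from the sample titles, which do not say what they mark. Whether they stand for a shared collection or preparation was not tested.

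**Figure D3:**
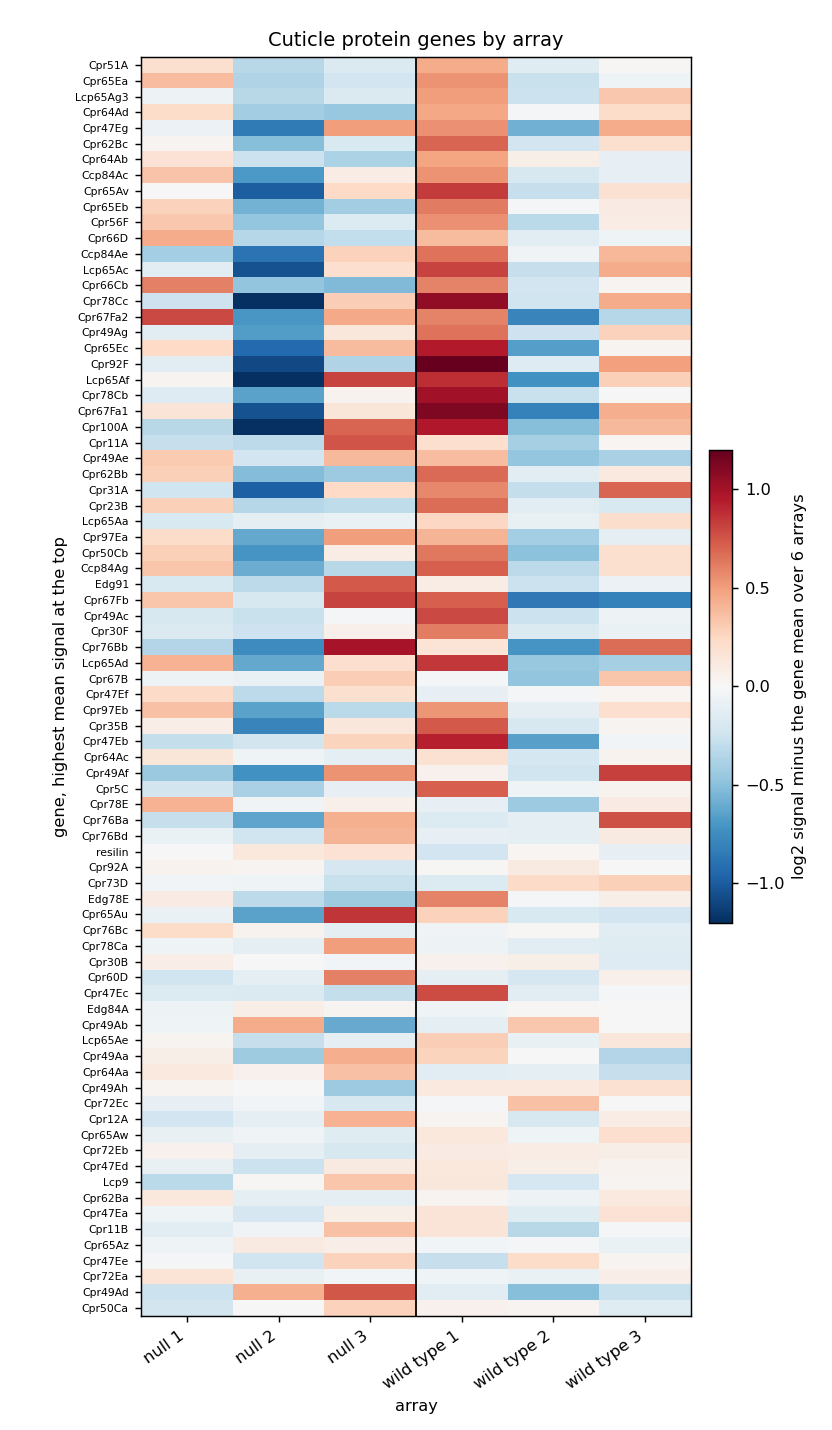
Log2 signal of each of the 80 cuticle protein genes on the 6 arrays, minus the gene's mean, with the highest mean signal at the top and the genotypes parted by a line. Red is above and blue below the gene mean. In the upper part of the map, null array 2 is blue in nearly every row, wild-type array 2 is mostly blue and wild-type array 1 is red.

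Same-numbered arrays of the genotypes were also compared. The labels do not give this pairing, which was taken from these same arrays. Values with the block are therefore not independent support for a fall in any member, here or below. With the number as a block, limma called 9 of 80 members lower in the null embryos (11.2%) and 0 higher, while it called 9.09% of all genes lower and 7.92% higher. The share called lower was thus close to that of all genes. At an unadjusted p under 0.05 the block gave 3 members higher and 23 lower, against 12.9% and 20.7% of all genes. The 9 were Cpr92F, Cpr78Cc, Lcp65Ac, Ccp84Ae, Cpr31A, Cpr65Eb, Cpr62Bb, Edg78E and Cpr49Af. Of these Cpr92F, Cpr31A, Cpr62Bb and Cpr49Af are named because of these values. In the null embryos 31 of 80 members (38.8%) were lower in all 3 same-number comparisons, beside 32.9% of all genes, and 5 (6.25%) were higher in all 3, beside 20.0%. In the highest class 14 of 23 members were lower in all 3, beside 37.2% of the other genes.

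The differences were unequal between the numbers. For the 23 members of the highest class the median difference was -0.62 at number 1, -0.33 at number 2 and -0.19 at number 3, with 20, 22 and 16 of them lower in the null embryos. For the 3882 other genes of that class the medians were -0.01, -0.04 and -0.14, with 50.6%, 54.2% and 63.7% lower. At number 3 the share of members lower, 69.6%, was thus close to that of the other genes. The order of the medians was the opposite for the cuticle genes and for the other genes. In the whole fit 22 of the 23 members lay below 0, with a median of -0.38. Of the 3882 other genes of the class 2305 lay below 0, with a median of -0.08. Without wild-type array 1 the median of all 80 members was -0.03, and without null array 2 it was -0.06. Without wild-type array 2 it was -0.29.

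**Figure D4:**
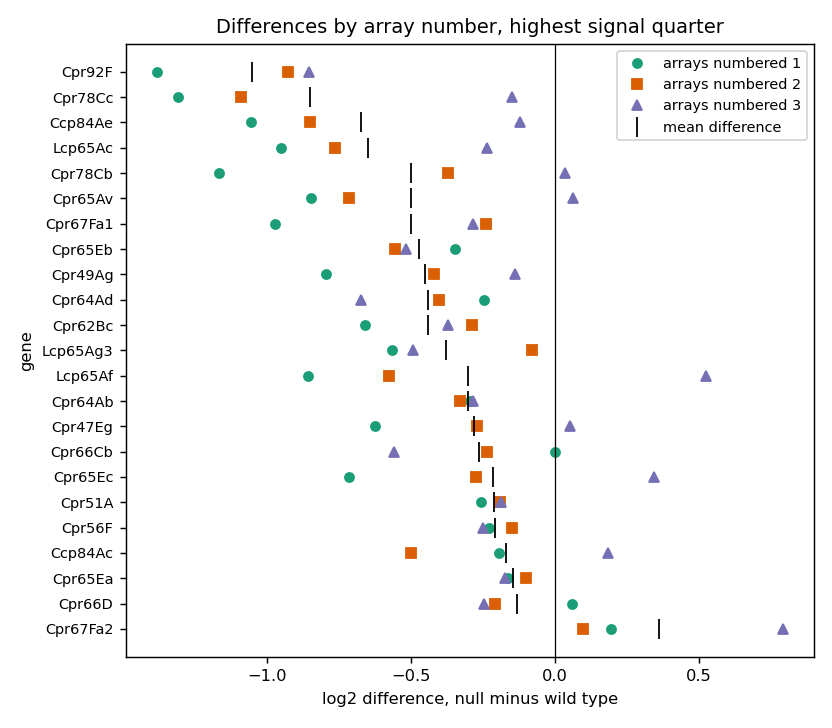
Log2 difference, null minus wild type, between same-numbered arrays for the 23 cuticle protein genes of the highest signal class, with the mean of the 3 differences as a bar. The genes are ordered by the mean, from Cpr92F (-1.05) to Cpr67Fa2 (0.36), and only for Cpr67Fa2 does the mean lie above 0.

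Cpr92F, on chromosome arm 3R, had the greatest difference of the members. It read 7.77, 6.83 and 7.55 on null arrays 1, 2 and 3, against 9.15, 7.75 and 8.40 on the wild-type arrays. Null array 1 lay just above wild-type array 2, and this was the only overlap between the groups. The group means were 7.38 ± 0.49 in the null embryos and 8.43 ± 0.70 in the wild type (SD, n = 3 each). By limma the difference was -1.05 (SE 0.37, adjusted p = 0.145), which is 2.07-fold lower. With the number as a block the adjusted p was 0.00236, with an SE of 0.14, and without both arrays numbered 2 it was 0.0439. Neither value is independent support. The labels do not give the pairing behind the block, which was taken from these arrays. Leaving out the arrays numbered 2 was chosen after seeing the data and removes wild-type array 2, which made the overlap.

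The largest run of neighbouring members lies on arm 3L, where 16 family genes follow each other in the Release 6 gene order from Lcp65Ag3 to Lcp65Aa, 9 of them measured. Lcp65A genes encode small proteins of the larval cuticle, and close copies in this run may share signal. Lcp65Ac read 8.84, 7.93 and 9.18 on null arrays 1, 2 and 3, against 9.79, 8.69 and 9.42 on the wild-type arrays. Each null value was below the wild-type value of its own number, and the groups overlapped (log2 difference -0.65, SE 0.37, limma adjusted p = 0.373, and 0.0278 with the block). Lcp65Ag3 read 11.42, 11.15 and 11.31 on the null arrays, against 11.98, 11.23 and 11.80 on the wild-type arrays (log2 difference -0.38, SE 0.20, limma adjusted p = 0.326). Here wild-type array 2 fell inside the range of the null arrays. Bright probe sets that list several genes of this run differed little. That of Lcp65Ag1 and Lcp65Ag2 averaged 11.96 in the null embryos and 11.98 in the wild type (difference -0.02, SE 0.28). That of Cpr65Ax1 and Cpr65Ax2 averaged 11.14 in the null embryos and 11.12 in the wild type (difference 0.03, SE 0.35).

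The other members of the run showed how far arrays of one genotype could lie apart. Lcp65Af read 7.83, 6.50 and 8.61 on the null arrays, against 8.68, 7.07 and 8.08 on the wild-type arrays, so that the null arrays alone covered more than 2 log2 units (difference -0.30, SE 0.57, limma adjusted p = 0.822). Cpr65Av read 9.36, 8.37 and 9.60 on the null arrays, against 10.20, 9.08 and 9.54 on the wild-type arrays (difference -0.50, SE 0.37, limma adjusted p = 0.515). Both were lowest on the arrays numbered 2. Lcp65Ad averaged 5.51 ± 0.54 in the null embryos and 5.51 ± 0.74 in the wild type, with values of 4.89 to 5.93 and 5.05 to 6.36 (SD, n = 3 each).

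Lcp65Aa varied less between arrays. It read 6.99, 7.06 and 7.09 on the null arrays, against 7.42, 7.08 and 7.39 on the wild-type arrays (difference -0.25, SE 0.12, limma adjusted p = 0.299). A second Lcp65Aa probe set, which averaged 5.41 in the null embryos and 5.72 in the wild type, differed by -0.31 (SE 0.22). Lcp65Ae, lower on the scale, averaged 3.44 ± 0.16 in the null embryos and 3.67 ± 0.20 in the wild type (SD, n = 3 each; difference -0.23, SE 0.14). Over the 13 measured members of division 65, which also holds the Cpr65E genes, 10 lay below 0 and the median was -0.23.

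In the Cpr65E group on the same arm, Cpr65Ea read 12.16, 11.42 and 11.56 on the null arrays, against 12.33, 11.52 and 11.74 on the wild-type arrays. It was among the members with the highest signal, and its difference of -0.14 (SE 0.25, limma adjusted p = 0.809) was smaller than the spread within either genotype. Its neighbour Cpr65Eb read 9.56, 8.72 and 8.87 on the null arrays, against 9.91, 9.27 and 9.39 on the wild-type arrays (difference -0.47, SE 0.25, limma adjusted p = 0.341, and 0.0298 with the block). The null value was the lower one at each number.

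The second largest run, on arm 3R, holds Edg84A and the Ccp84A genes, 8 family genes of which 4 were measured. Ccp84Ae read 8.60, 8.12 and 9.28 on the null arrays, against 9.65, 8.96 and 9.40 on the wild-type arrays. Null array 3 reached into the wild-type range (difference -0.67, SE 0.30, limma adjusted p = 0.245, and 0.0420 with the block). With array weights limma called it alone of the members, at -0.80 (adjusted p = 0.0456), while 7.12% of all genes were called lower and 9.83% higher. The lowest weight, 0.317, was that of null array 3, the array that made the overlap. This call is therefore not independent support. Ccp84Ac read 9.88, 8.85 and 9.63 on the null arrays, against 10.08, 9.35 and 9.44 on the wild-type arrays (difference -0.17, SE 0.29). Ccp84Ag read 6.82, 5.89 and 6.15 on the null arrays, against 7.20, 6.17 and 6.68 on the wild-type arrays (difference -0.39, SE 0.31, limma adjusted p = 0.538). All 3 Ccp84A genes were lowest on the array numbered 2 in both genotypes.

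Edg84A, at the end of the same run, is a pupal cuticle gene switched on by the nuclear receptor FTZ-F1 before pupation. It stayed near the floor, at 3.64, 3.78 and 3.74 on the null arrays, against 3.65, 3.72 and 3.70 on the wild-type arrays (difference 0.03, SE 0.10). It did not share the array pattern of its neighbours. Edg78E, another pupal cuticle gene of the ecdysone-dependent group, read 4.04, 3.63 and 3.52 on the null arrays, against 4.54, 3.92 and 4.02 on the wild-type arrays (difference -0.43, SE 0.20, limma adjusted p = 0.272, and 0.0422 with the block). Edg91, also named for its dependence on ecdysone, averaged 6.26 ± 0.57 in the null embryos and 6.10 ± 0.17 in the wild type (SD, n = 3 each; difference 0.16, SE 0.27), and null array 3, at 6.92, was the highest of the 6.

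The gene of resilin, the rubber-like protein of elastic cuticle such as the wing hinge, read 4.08, 4.20 and 4.25 on the null arrays, against 3.85, 4.10 and 3.98 on the wild-type arrays. Each null value was above the wild-type value of its number, with overlap between the groups (difference 0.20, SE 0.11, limma adjusted p = 0.353). Lcp9 averaged 3.17 ± 0.33 in the null embryos and 3.15 ± 0.17 in the wild type (SD, n = 3 each; difference 0.02, SE 0.18). Both lay in the second signal class.

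Cpr64A genes form a run of 4 on arm 3L, and 3 of them lay below 0. Cpr64Ad read 11.09, 10.45 and 10.42 on the null arrays, against 11.34, 10.85 and 11.09 on the wild-type arrays (difference -0.44, SE 0.21, limma adjusted p = 0.277, and 0.0548 with the block). Its null array 1 and wild-type array 3 nearly coincided, while both other null arrays lay below all wild-type arrays. Cpr64Ab read 9.88, 9.44 and 9.32 on the null arrays, against 10.17, 9.77 and 9.60 on the wild-type arrays (difference -0.30, SE 0.19). Both were exceptions to the rule of the arrays numbered 2, as was Cpr66Cb, the remaining exception among the 23 brightest members.

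Cpr64Aa, in the same run, was the only member whose 3 null values all lay above its 3 wild-type values, while 14.1% of all genes did so. It read 3.60, 3.53 and 3.84 on the null arrays, against 3.35, 3.38 and 3.21 on the wild-type arrays (difference 0.34, SE 0.12, limma adjusted p = 0.139), close to the floor. The opposite order was seen in 5 members, Cpr47Ec, Cpr49Ah, Cpr5C, Cpr72Eb and Cpr72Ec, against 17.8% of all genes. Of these Cpr5C had the greatest difference and read 4.74, 4.57 and 4.86 on the null arrays, against 5.67, 4.91 and 5.00 on the wild-type arrays (difference -0.47, SE 0.20, limma adjusted p = 0.237). All 5 lay in the second signal class. These 6 genes are named because of their values.

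In divisions 62 and 78, 3 of 3 and 3 of 5 measured members lay below 0. Cpr78Cc read 8.14, 7.05 and 8.68 on the null arrays, against 9.44, 8.14 and 8.83 on the wild-type arrays (difference -0.85, SE 0.45, limma adjusted p = 0.336, and 0.0327 with the block). Cpr31A read 7.07, 6.33 and 7.55 on the null arrays, against 7.88, 7.02 and 8.004 on the wild-type arrays (difference -0.65, SE 0.35, limma adjusted p = 0.345, and 0.0107 with the block). In both genes the groups overlapped, and each null value was below the wild-type value of its number.

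The Cpr62B genes had smaller differences. Cpr62Bb read 7.61, 6.80 and 6.88 on the null arrays, against 8.0035, 7.20 and 7.44 on the wild-type arrays (difference -0.45, SE 0.27, limma adjusted p = 0.405, and 0.0341 with the block). Cpr62Bc read 9.82, 9.27 and 9.61 on the null arrays, against 10.48, 9.55 and 9.98 on the wild-type arrays (difference -0.44, SE 0.24, limma adjusted p = 0.360, and 0.0510 with the block). Each group's highest value was on array 1.

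In the division 47 and 49 groups on arm 2R, 5 of 7 and 5 of 8 measured members lay below 0. Cpr47Eg read 9.85, 9.08 and 10.42 on the null arrays, against 10.47, 9.35 and 10.37 on the wild-type arrays (difference -0.28, SE 0.39). Cpr49Ag read 8.09, 7.56 and 8.37 on the null arrays, against 8.88, 7.98 and 8.50 on the wild-type arrays (difference -0.45, SE 0.27, limma adjusted p = 0.403). Both had array 2 lowest in each genotype. Cpr49Af read 4.53, 4.25 and 5.52 on the null arrays, against 5.03, 4.74 and 5.79 on the wild-type arrays (difference -0.42, SE 0.37, limma adjusted p = 0.591, and 0.0470 with the block). Its null values lay below the wild type at each number.

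A neighbour of these genes, Cpr49Ad, differed the other way. It read 2.42, 3.10 and 3.42 on the null arrays, against 2.55, 2.17 and 2.41 on the wild-type arrays (difference 0.61, SE 0.24, limma adjusted p = 0.201). It lay at the floor of the arrays in the wild type, and without null array 1 it was called higher (difference 0.89, limma adjusted p = 0.0392). Null array 1, at 2.42, was the only null array inside the wild-type range. That call is therefore not independent support. On the same arm Cpr51A read 12.33, 11.80 and 11.96 on the null arrays, against 12.58, 11.99 and 12.15 on the wild-type arrays (difference -0.21, SE 0.19, limma adjusted p = 0.607).

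The Cpr67F genes, a run of 3 on arm 3L, did not go one way. Cpr67Fa2 read 9.13, 7.64 and 8.79 on the null arrays, against 8.93, 7.54 and 7.997 on the wild-type arrays (difference 0.36, SE 0.45, limma adjusted p = 0.717). Cpr67Fa1 read 7.76, 6.56 and 7.76 on the null arrays, against 8.73, 6.80 and 8.04 on the wild-type arrays (difference -0.50, SE 0.51, limma adjusted p = 0.646). Cpr67Fb read 6.48, 5.95 and 6.95 on the null arrays, against 6.86, 5.28 and 5.33 on the wild-type arrays (difference 0.64, SE 0.44, limma adjusted p = 0.478). All 3 were lowest on array 2 in both genotypes. Cpr67Fa1 and Cpr67Fa2 are close copies whose transcripts may bind each other's probes, so both values are uncertain. The difference between them was not tested. A probe set that lists both genes averaged 9.21 in the null embryos and 9.32 in the wild type (difference -0.11, SE 0.50). Division 67 was the one division with at least 4 measured members whose median lay above 0, at 0.23. In division 76 the brightest member, Cpr76Bb, read 5.17, 4.77 and 6.51 on the null arrays, against 5.69, 4.82 and 6.20 on the wild-type arrays (difference -0.08, SE 0.49), and 2 of its 4 members lay below 0.

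Several other lists of cuticle genes had their lowest signals on the arrays numbered 2 as well. The pattern was not limited to cuticle genes, since 3 of 3 muscle markers were lowest on these arrays in both genotypes. In each of the other marker lists this held for at most 1 gene, with 0 of 7 blastoderm and 0 of 4 midgut markers. Of 24 Tweedle genes, another family of cuticle proteins, 0 passed and 22 lay below 0, with a median of -0.37, and 5 fell with the number as a block. Over all genes 60.0% lay below 0 and 9.09% fell with the block. Their median signal was 9.51, 8.73 and 8.96 on null arrays 1, 2 and 3, against 9.99, 9.22 and 9.34 on the wild-type arrays. Of 24 Osiris genes, which are active in cuticle-secreting epithelia, 0 passed, 19 lay below 0 (median -0.21) and 1 fell with the block. The arrays numbered 2 were the lowest of both genotypes for 15 Tweedle and 14 Osiris genes, each of 24, against 17.6% of all genes.

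Of 23 measured genes for chitin synthesis and assembly, 0 passed and 21 lay below 0 (median -0.23), with 1 fall under the block. Over all genes 60.0% lay below 0 and 9.09% fell under the block. The arrays numbered 2 were the lowest of both genotypes for 10 of the 23, against 17.6% of all genes. The chitin synthase gene kkv, named here for its role, read 9.99, 9.71 and 9.93 on the null arrays, against 9.88, 10.07 and 10.13 on the wild-type arrays (difference -0.15, SE 0.12, limma adjusted p = 0.550). It was lowest on array 2 among the null arrays and on array 1 among the wild-type arrays.

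Among 11 measured tanning and melanisation genes the median was -0.35, and 4 fell under the block, beside 9.09% of all genes. Without the block 1 fell and 0 rose, beside 4.0% and 6.24% of all genes. The gene that fell was t (tan), whose product releases dopamine from its beta-alanine conjugate. It read 5.52, 5.83 and 5.91 on the null arrays, against 6.29, 7.14 and 6.70 on the wild-type arrays, without overlap (difference -0.95, SE 0.22, limma adjusted p = 0.0380).

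Of 16 measured genes of ecdysone synthesis and response, ecdysone being the moulting hormone, 1 rose and 2 fell. Over all genes 6.24% rose and 4.0% fell. The steroid hydroxylase gene dib fell by 1.46 (SE 0.17, limma adjusted p = 0.00337) and spo by 1.24 (SE 0.20, adjusted p = 0.0110), while nvd rose by 0.84 (SE 0.18, adjusted p = 0.0305). The arrays numbered 2 were lowest in both genotypes for 2 of these 16 genes, near the 17.6% of all genes. Of 8 barrier and epidermal regulators 1 rose, the gene of the actin-bundling protein Singed, sn, by 0.62 (SE 0.14, limma adjusted p = 0.0344), and 1 of 8 was lowest on the arrays numbered 2 in both genotypes, a share near that of all genes as well. The median signal of either list was instead highest on array 2 in both genotypes. On null and wild-type array 2 it was 7.64 and 7.70 for the ecdysone list, and 9.71 and 9.39 for the regulators. Of 10 measured zona pellucida proteins of the apical matrix 0 passed, with 1 fall under the block, beside 9.09% of all genes.

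**Figure D5:**
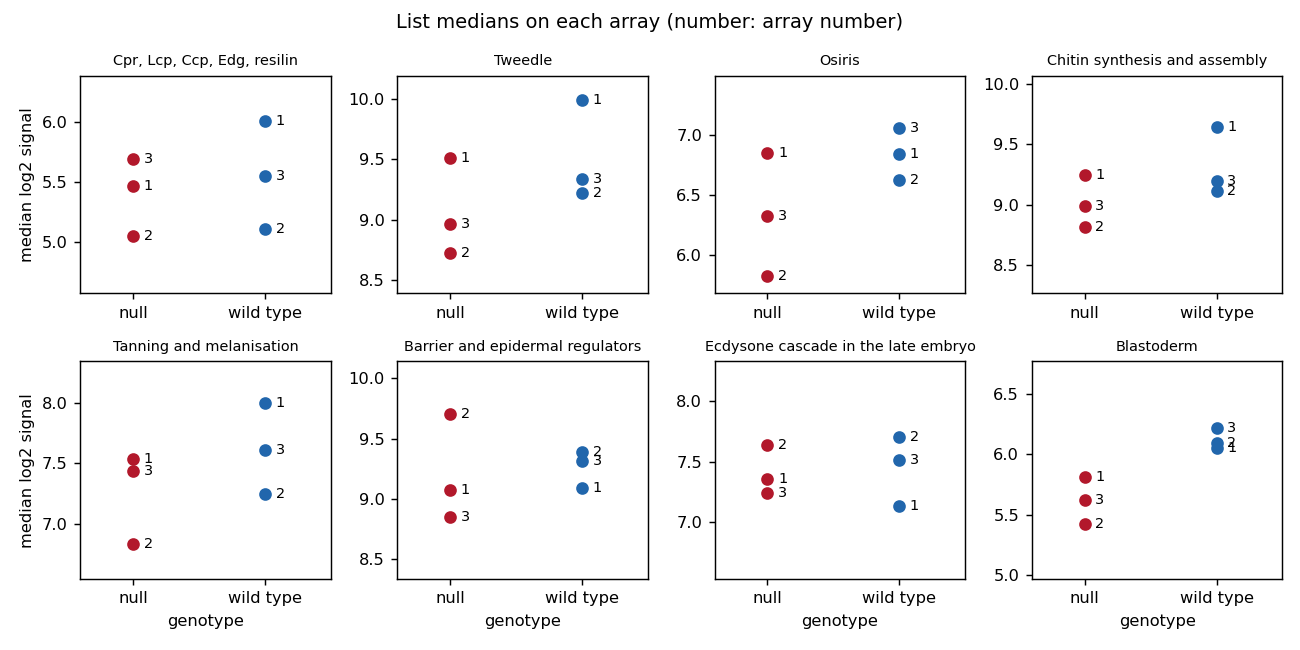
Median log2 signal of each gene list on the 6 arrays, with null arrays on the left, wild-type arrays on the right and the array number beside each point; every panel spans the same number of log2 units. In the cuticle protein, Tweedle, Osiris, chitin and tanning panels array 2 is the lowest of both genotypes, whereas in the panels of regulators and of the ecdysone cascade it is the highest of both, and in the blastoderm panel all null arrays lie below all wild-type arrays.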

How the data were processed

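The deposited log2 expression values came from Partek with RMA (robust multi-array averaging); this is stated in the submitters' processing notes, with no version. RMA brings the arrays towards a common distribution, and its background step compresses differences of dim probe sets. The medians over the probe sets still differed. They were 4.94, 4.87 and 4.90 on null arrays 1, 2 and 3, against 5.08, 4.96 and 5.02 on the wild-type arrays. Of 18952 probe sets, 183 controls were left out. Of the remaining 18769, 13647 named 1 gene, 402 several and 4720 none; 13544 took current symbols from the RefSeq table (Release 6 plus ISO1 MT), which served for names and gene order only. A gene was represented by its probe set with the highest mean. Null minus wild type differences were tested 2-sided in limma 3.58.1 (lmFit, then eBayes; R 4.3.3) with no covariate and with Benjamini-Hochberg adjustment over all 18769 probe sets and a threshold of 0.05. The code was tested on simulated data. No 2 arrays shared more than 0.0844% of values. The number of arrays limits the precision. The limma p-values set each difference against the spread between these samples, as moderated by eBayes over all probe sets.

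Named genes were the 10 with the highest mean, all Lcp, Ccp and Edg genes, resilin, and the brightest member of each division with at least 4 members; 14 others members were named after their values were seen, and kkv for its role. The members and lists were chosen with earlier results of these data known. Same-numbered arrays correlated in their deviations from the group means at 0.108, 0.544 and 0.224, each over 0.1, and on that basis arrays of equal number were treated as pairs. The labels do not say so, and null array 3 correlated more with wild-type array 1 (0.266). Promoter and protein sequences were not used here. Other settings tried were the array number as a block, leaving out single arrays, other normalizations, moderation, array weights, filters on dim probe sets, averaged probe sets and, chosen after seeing the data, leaving out both arrays numbered 2 and taking the intervals from the fit with the block.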

Additional observations from a re-analysis of the deposited data

How the results depend on the processing

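Counts of 0 members higher and 0 lower were also found with centring, quantile normalization, trend and robust moderation, no moderation, both filters and averaged probe sets. The replicate block called 9 lower, array weights 1 lower, and leaving out both arrays numbered 2 called 1 lower. Leaving out 1 array at a time gave 0 to 1 members higher, the 1 without null array 1, and 0 to 0 lower. The share of all genes called is given here for the main fit, the block and array weights only. Counts from the other fits are therefore not read as many or few. The median difference ran from -0.29 to -0.03. Among 40 named genes, array weights changed the sign of Ccp84Ac (0.0568), Cpr65Ea (0.10), Cpr66Cb (0.14), Edg84A (-0.0131), Edg91 (-0.0419) and Lcp9 (-0.20). Centring and quantile normalization changed that of Cpr76Bb (0.0346 and 0.0380), and leaving out both arrays numbered 2 that of Lcp9 (-0.0773). With 1 array left out, the sign also changed in some fits, over ranges of -0.38 to 0.13 for Ccp84Ac, -0.64 to 0.0739 for Cpr47Eg, -0.37 to 0.0865 for Cpr65Ea, -0.60 to 0.27 for Cpr76Bb, -0.0025 to 0.0690 for Edg84A, -0.17 to 0.36 for Edg91, -0.23 to 0.43 for Lcp65Ad, -0.78 to 0.27 for Lcp65Af and -0.14 to 0.19 for Lcp9. The cause was not tested. Under the filters on dim probe sets 74 and 45 members were left. Signal near the floor limits what a fall can show.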

Other observations

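Probe sets that list several genes, at least 1 of them a member, were not part of the comparison. There were 8 of them, and 0 passed limma's threshold, with 1 at an unadjusted p under 0.05. That probe set had a log2 signal of 3.39, 3.39 and 3.40 on null arrays 1, 2 and 3, against 3.94, 3.62 and 3.67 on the wild-type arrays (difference -0.36, SE 0.12, adjusted p = 0.120). Another, which lists Lcp65Ag1 and Lcp65Ag2, averaged 11.96 in the null embryos and 11.98 in the wild type and differed by -0.02 (SE 0.28).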
